A study of Mus musculus with 4 samples.

Results

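Toll-like receptors are sensors of microbial and nucleic acid ligands on the surface and in the endosomes of immune cells and of some epithelial cells, and MyD88 is the adaptor protein that joins nearly all of them to a kinase cascade ending in NF-kB and interferon regulatory factors. The genes described here are Tlr1, Tlr2, Tlr3, Tlr4, Tlr5, Tlr6, Tlr7, Tlr9, Tlr13 and Myd88, chosen by symbol alone: every probe whose annotation named one of these 10 genes was read, which gave 16 probes. Of the 10 genes, 8 had a probe above the noise limit of the array, and these 8 are among 12729 named genes measured in this way. The study put RNA from the dorsal skin of C57BL/6J mice, 8 to 12 weeks old, on 4 Illumina bead arrays. Skin came from mice given IL-17A mini-circle DNA together with IMQ, mice given IL-17A mini-circle DNA alone, mice given GFP mini-circle DNA together with IMQ, and mice given GFP mini-circle DNA alone. A mini-circle is a small circular expression vector, and all mice carried either the cytokine vector or its GFP control. IMQ is how imiquimod is commonly abbreviated. The labels state no dose, duration or route for it.

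Every group was 1 array made from a pool of 6 mice, so no group had a replicate, no difference below could be set against a spread between animals, and no test was made. Higher and lower are said of these arrays alone. Signals are the deposited background-subtracted intensities, and log2 levels were computed from them after a background model that adds 50 to the signal, followed by quantile normalization. That addition shrinks the differences of dim probes, which most receptor probes were. The noise limit, taken from the values below 0 on each array, was 11.8 on the IL-17A with IMQ array, 12.6 on the IL-17A array, 11.6 on the GFP with IMQ array and 12.7 on the GFP array. Median signals of all probes were 7.96, 8.31, 7.85 and 8.80 on the arrays in the same order. With so few arrays, precision is limited by their number. Of 10 keratinocyte markers, 9 were on the array and 8 were above the limit on all 4 arrays.

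Cell-surface receptors bind lipids and proteins of microbes: TLR2 pairs with TLR1 or TLR6 to bind bacterial lipopeptides, TLR4 binds lipopolysaccharide and TLR5 binds flagellin. Endosomal receptors bind nucleic acids: TLR3 double-stranded RNA, TLR7 single-stranded RNA and imidazoquinolines such as imiquimod, TLR9 unmethylated CpG DNA and, in the mouse, TLR13 a stretch of bacterial ribosomal RNA. TLR3 signals through the adaptor TRIF in place of MyD88, and in skin macrophages, dendritic cells, mast cells and keratinocytes are known to carry different sets of these receptors.

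Promoter sequence was in the RefSeq table (GRCm38.p6) for 8 of the 10 genes, in 10 windows, and the 250 bases before the start site are shown for the adaptor, for Tlr13 and for the pair Tlr1 and Tlr6, to show how the regulatory letters of these genes differ. Capitals mark matches, on either strand, to the core bound by interferon regulatory factors (AANNGAAA) or to an ETS core of the PU.1 type (GAGGAAGT).
Myd88, chr9:119340019-119340268, minus strand: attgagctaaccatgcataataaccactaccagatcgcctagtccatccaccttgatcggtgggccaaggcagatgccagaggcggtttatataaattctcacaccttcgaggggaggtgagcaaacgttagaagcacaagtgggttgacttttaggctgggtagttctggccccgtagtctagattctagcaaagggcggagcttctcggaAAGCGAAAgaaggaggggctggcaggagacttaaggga
Tlr13, chrX:106143025-106143274, plus strand: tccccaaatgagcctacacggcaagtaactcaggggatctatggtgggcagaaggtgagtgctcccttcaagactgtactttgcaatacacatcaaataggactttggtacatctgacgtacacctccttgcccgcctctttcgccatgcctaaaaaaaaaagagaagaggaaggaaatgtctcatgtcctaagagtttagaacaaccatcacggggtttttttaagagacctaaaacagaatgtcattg
Tlr1, chr5:64933559-64933808, minus strand: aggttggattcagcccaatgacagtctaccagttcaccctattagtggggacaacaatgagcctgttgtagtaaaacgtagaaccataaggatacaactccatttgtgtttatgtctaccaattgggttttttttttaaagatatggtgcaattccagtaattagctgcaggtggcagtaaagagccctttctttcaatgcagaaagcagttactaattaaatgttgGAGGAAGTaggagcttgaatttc
Tlr6, chr5:64959167-64959416, minus strand: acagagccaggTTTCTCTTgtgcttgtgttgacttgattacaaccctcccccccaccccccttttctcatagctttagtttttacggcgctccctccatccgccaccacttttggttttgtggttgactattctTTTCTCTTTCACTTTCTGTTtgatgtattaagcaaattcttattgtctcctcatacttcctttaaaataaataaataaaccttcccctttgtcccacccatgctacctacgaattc
The interferon-type match began 38 bases before the Myd88 start. In the Tlr6 window shown 4 matches began 239, 116, 110 and 104 bases before the start, the last 3 of them overlapping. The other Tlr6 window, not shown, held no match to either set of letters. The ETS-type match began 23 bases before the Tlr1 start shown, the other Tlr1 window, not shown, held an interferon-type match 54 bases before its start, and Tlr13 held no match to these letters. Over 32851 promoter windows of the same length, 21.3% held the interferon-type letters and 2.44% the ETS-type letters. A match is a description of the sequence and not a site shown to be used. Tlr1 and Tlr6 are close relatives that lie beside each other on chromosome 5 (chr5:64924680-64933600 and chr5:64953092-64970942), and how far their probes tell them apart was not checked here.

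In these skin samples the 7 receptor genes above the limit were each highest on the GFP array. That array carried RNA from skin of mice given neither IL-17A DNA nor IMQ. Myd88 was lowest in GFP skin with IMQ and higher on both IL-17A arrays. The GFP array was highest for all 10 receptor probes above the limit. This held in the deposited signals, the normalized levels and the authors' normalized values. Among all genes 28.4% were highest on the GFP array. Tlr7 had the widest range of the members, 1.10 on the log2 scale, followed by Tlr13 at 0.74. At these log2 levels only Tlr7 was 2-fold apart in a comparison, and it was lower in IL-17A skin than in GFP skin; in the authors' values Tlr13 was so too (-1.03). In the deposited signals the brightest probes of Tlr1 (2.95-fold), Tlr6 (2.48-fold), Tlr13 (2.45-fold) and Tlr5 (2.06-fold) also passed 2-fold, all lower in IL-17A than in GFP skin. In those signals the brightest probes of Tlr7 (2.35-fold), Tlr13 (2.21-fold) and Tlr5 (2.21-fold) were also past 2-fold lower in GFP skin with IMQ than in GFP skin.

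Tlr7, the endosomal receptor that imiquimod activates, lies on the X chromosome (chrX:167303380-167330574) and had 1 probe. Its signal was 74.4 in IL-17A skin with IMQ, 89.4 in IL-17A skin without it, 105 in GFP skin with IMQ and 248 in GFP skin. The GFP array stood well above the other 3, which lay close together and all far above their noise limits. On the log2 scale the level was 7.14, 7.23, 7.48 and 8.24 in the same order of arrays. IL-17A skin was 2.02-fold lower than GFP skin, a log2 difference of -1.01, and GFP skin with IMQ was 1.69-fold lower than GFP skin. Of all genes, 0.966% had a lower difference than Tlr7 in the first of these comparisons and 0.943% in the second. With IMQ on both sides, IL-17A skin was 1.27-fold lower than GFP skin. The deposited signals, before the addition of 50, were 2.77-fold lower in IL-17A skin and 2.35-fold lower in GFP skin with IMQ than in GFP skin.

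Tlr13, the mouse receptor for bacterial ribosomal RNA, is also on the X chromosome (chrX:106143275-106160493) and had 2 probes. The brighter one gave 88.9 in IL-17A skin with IMQ, 57.8 in IL-17A skin without it, 63.9 in GFP skin with IMQ and 142 in GFP skin. On this probe GFP skin was again highest, but the doubly treated skin was second. IL-17A skin was 1.67-fold lower than GFP skin (log2 difference -0.74), and GFP skin with IMQ was lower by a log2 difference of -0.58. The dimmer probe gave 12.5 in IL-17A skin with IMQ, close to its limit, 17.6 in IL-17A skin without it, 33.5 in GFP skin with IMQ and 59.5 in GFP skin. Both probes were lower with either treatment alone than in GFP skin, yet they disagreed under IMQ, where IL-17A minus GFP was 0.22 on the brighter probe and -0.38 on the dimmer one. The direction of Tlr13 under IMQ is therefore not settled by these probes.

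Tlr3 and Tlr9, the receptors for double-stranded RNA and CpG DNA, were not above the limit on any array. The Tlr3 probe read -3.7 in IL-17A skin with IMQ, 7.1 in IL-17A skin without it, 3.4 in GFP skin with IMQ and 4.3 in GFP skin. The probes of Tlr9, 2 in number, lay between -12.3 and 1.3. These readings have no order, and no difference is given for these genes. Their transcripts were not detectable with these probes, which is not the same as absent.

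Among the surface receptors, the Tlr2 probe gave 166 in IL-17A skin with IMQ, 125 in IL-17A skin without it, 133 in GFP skin with IMQ and 192 in GFP skin. The arrays with 1 treatment were lowest and the doubly treated array lay between them and GFP skin. Tlr2 was 1.35-fold lower in IL-17A than in GFP skin and 1.19-fold lower in GFP skin with IMQ than in GFP skin. In IL-17A skin it was 1.27-fold higher with IMQ than without, a difference exceeded by 3.77% of genes.

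Its partners Tlr1 and Tlr6 were dim. Tlr1 gave 14.5 in IL-17A skin with IMQ, 16.4 in IL-17A skin without it, 30.0 in GFP skin with IMQ and 48.5 in GFP skin, so both IL-17A arrays were just above the limit and below both GFP arrays. Its log2 difference between IL-17A and GFP skin was -0.45, and the deposited signal was 2.95-fold lower. The brighter Tlr6 probe gave 37.1 in IL-17A skin with IMQ, 22.8 in IL-17A skin without it, 29.8 in GFP skin with IMQ and 56.7 in GFP skin. The dimmer Tlr6 probe gave 20.6, 13.8, 20.1 and 24.2 in the same order of arrays. Both Tlr6 probes were highest in GFP skin and lowest in IL-17A skin without IMQ, with log2 differences of -0.44 and -0.16 between them.

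Tlr4 had 3 probes, of which 1 was not above the limit on any array. The brightest gave 106 in IL-17A skin with IMQ, 116 in IL-17A skin without it, 96.8 in GFP skin with IMQ and 146 in GFP skin. The next gave 66.0, 66.4, 59.1 and 127 in the same order of arrays. Both put GFP skin highest and the other 3 arrays close together, but the size differed: IL-17A minus GFP was -0.22 on the brightest probe and -0.53 on the next. The Tlr5 probe gave 48.0 in IL-17A skin with IMQ, 48.2 in IL-17A skin without it, 45.0 in GFP skin with IMQ and 99.4 in GFP skin. Tlr5 was thus 1.43-fold lower in IL-17A skin and 1.41-fold lower in GFP skin with IMQ, each against GFP skin, and the 3 treated arrays were nearly equal.

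Myd88 behaved unlike the receptors. Its gene lies on chromosome 9 (chr9:119335934-119340018), and its brighter probe gave 2618 in IL-17A skin with IMQ, 2799 in IL-17A skin without it, 1903 in GFP skin with IMQ and 2500 in GFP skin. The dimmer probe gave 371 in IL-17A skin with IMQ, 339 in IL-17A skin without it, 199 in GFP skin with IMQ and 292 in GFP skin. On both probes the IL-17A arrays were the highest pair and GFP skin with IMQ was lowest. Under IMQ, IL-17A skin was above GFP skin by 0.35 on the brighter probe, or 1.28-fold, and by 0.64 on the dimmer one. Without IMQ the difference was 0.15 on each probe. None of the Myd88 values of the brighter probe reached 1.5-fold.

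**Figure D1:**
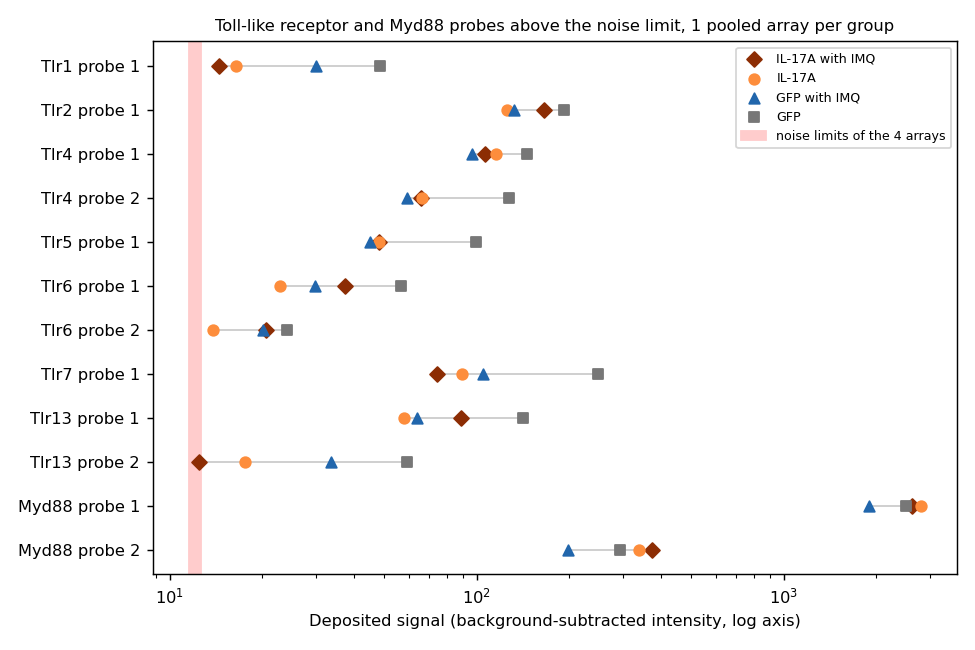
Deposited background-subtracted signals (log axis) of the 12 member probes above the noise limit, with 1 point per pooled array and a band spanning the 4 noise limits; probe 1 of a gene is its brightest. GFP skin is the rightmost point for all 10 receptor probes, while for both Myd88 probes the IL-17A arrays are rightmost and GFP with IMQ is leftmost.

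How skin of mice given IL-17A DNA differed from control skin was read first without IMQ. All 7 receptors were lower in IL-17A skin and Myd88 was slightly higher. Of the 8 genes, 1 was at least 2-fold lower (Tlr7) and 0 at least 2-fold higher, where 0.99% of all 12729 genes were lower and 0.841% higher by that much. At 1.5-fold 2 were lower, Tlr7 and Tlr13, and 0 higher, against 3.19% and 2.13% of all genes. The median log2 difference of the receptors was -0.45, and that of all genes was 0.01, with 47.3% of them below 0. The deposited signals, quantile normalized without the background model and floored at 16, gave 5 of the 8 at least 2-fold lower (Tlr1, Tlr5, Tlr6, Tlr7 and Tlr13), where 2.88% of all genes were.

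What IMQ changed in GFP skin was the next question. All 8 genes were lower with IMQ, with a median of -0.29 for the receptors and 0.00 for all genes, of which 49.4% were below 0. At these log2 levels none (0) was 2-fold apart in either direction, where 0.283% of genes were lower and 0.416% higher. Tlr7 alone was at least 1.5-fold lower, with Tlr13 just under that at 1.49-fold, and 0 were higher, against 2.06% and 1.55% of all genes. In the deposited signals the brightest probes of Tlr7 (2.35-fold), Tlr13 (2.21-fold) and Tlr5 (2.21-fold) and the next Tlr4 probe (2.15-fold) were more than 2-fold lower with IMQ. This comparison and the one before share the GFP array, so the values of the receptors in them are not separate readings of how high that array stood.

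The remaining comparisons do not use the GFP array, and in them the receptors differed little at these log2 levels. Under IMQ, the receptor median of IL-17A minus GFP was 0.02, with Tlr1 (-0.28) and Tlr7 (-0.35) below 0. None (0) of the 8 was 2-fold or 1.5-fold apart. Of all 12729 genes, 1.06% were higher and 0.283% lower by 2-fold, and 2.52% and 1.87% by 1.5-fold. In the deposited signals of this comparison Tlr1 was 2.07-fold and Tlr7 1.41-fold lower in IL-17A skin. There Tlr13 was 1.39-fold higher on its brighter probe and 2.68-fold lower on its dimmer one. The probes of Tlr2, Tlr4, Tlr5 and Tlr6 above the limit were higher, by at most 1.25-fold. In IL-17A skin, IMQ against no IMQ gave a receptor median of 0.03. Tlr13 (0.37), Tlr2 (0.34) and Tlr6 (0.24) had the highest values, and again 0 of 8 were past either fold. There 0.165% of all genes were higher and 0.0786% lower by 2-fold, and 0.966% and 0.212% by 1.5-fold. When a gene's probes were averaged, Tlr13 changed sign under IMQ and Tlr4 in IL-17A skin, and Myd88 in IL-17A skin did so when arrays were scaled by their medians.

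**Figure D2:**
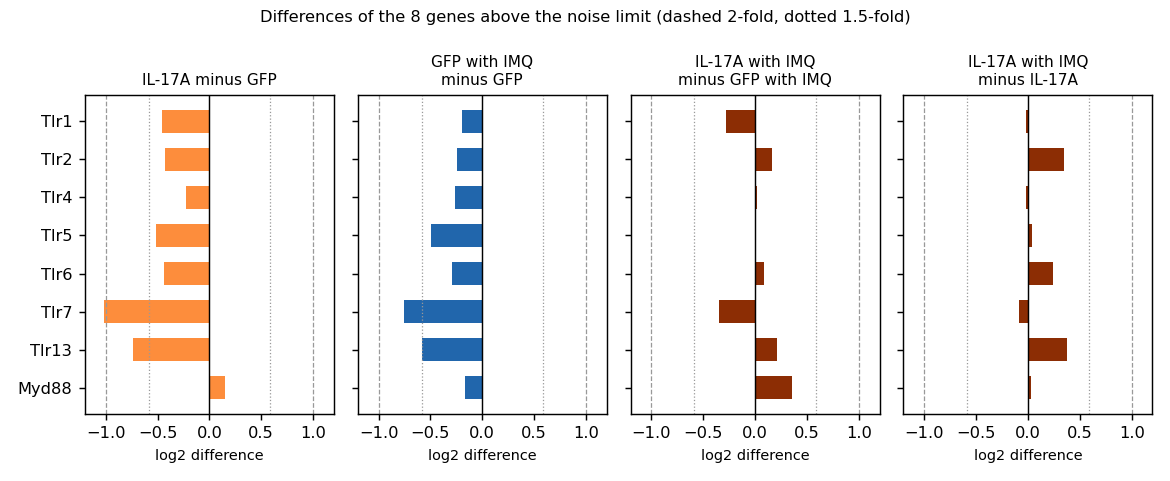
Log2 differences of the 8 genes above the limit in 4 comparisons, 1 panel each, with dashed lines at 2-fold and dotted lines at 1.5-fold. Both comparisons against the GFP array show the 7 receptors below 0, and Tlr7 passes 2-fold in IL-17A minus GFP.

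Whether IL-17A and IMQ added up was read as the IL-17A difference under IMQ minus that without it. The result was above 0 for 8 of 8 genes, with a median of 0.53, while 48.9% of all genes were above 0 and their median was -0.01. Tlr13 had 0.95, a departure exceeded by 0.848% of genes, Tlr7 0.67, exceeded by 2.58%, and Tlr2 0.59, exceeded by 3.83%. For Tlr13 the dimmer probe gave 0.18, the mean of both probes 0.57 and the brighter probe without the background model 1.68. Without that model Tlr6 had 1.5 in place of 0.53, and the median of the 8 genes was 0.87. The GFP array enters this quantity with a positive sign, so a gene that is high on that array alone has a positive departure. Each treatment alone went with lower receptor levels than in GFP skin, and both together did not go lower by the sum of the separate differences.

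Mouse Toll-like receptor genes outside the chosen set were dim. Tlr8, next to Tlr7 on the X chromosome and also a sensor of single-stranded RNA, gave 4.06 in IL-17A skin with IMQ, 12.3 in IL-17A skin without it, 15.3 in GFP skin with IMQ and 35.5 in GFP skin. It was above the limit only on the GFP and GFP with IMQ arrays, and it was highest in GFP skin as Tlr7 was. Tlr11 and Tlr12 were not above the limit on any array.

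By Euclidean distance between the 4 log2 levels, each gene centred on its own mean, the genes most like Tlr7 among 10358 genes above the limit on all arrays were Csrp2 (distance 0.06), Prune2 (0.07) and Myo1g (0.09). Csrp2 gave 618 in IL-17A skin with IMQ, 691 in IL-17A skin without it, 722 in GFP skin with IMQ and 1407 in GFP skin, the same order of arrays as Tlr7. Likeness over 4 arrays is a description only.

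The list of co-receptors and trafficking factors holds genes that load ligands onto these receptors or bring the endosomal ones to their compartment. It also holds endosomal proteases and the receptor homologue CD180, so it is wider than that role. In IL-17A skin 14 of 14 genes above the limit were lower than in GFP skin. Their median was -0.52, and 4 passed 2-fold, all of them lower. Of all genes, 47.3% were below 0 in that comparison and 0.99% were at least 2-fold lower. Ly86, which encodes the MD-1 protein that pairs with the receptor homologue CD180, was 3.60-fold lower. Nrros, a leucine-rich protein of myeloid cells, was 2.43-fold lower on its brighter probe (-1.28) but not on its dimmer one (0.15), Unc93b1, the chaperone that carries the nucleic acid receptors to endosomes, 2.38-fold, and Lgmn, an endosomal protease, 2.17-fold. Unc93b1 gave 348 in IL-17A skin with IMQ, 421 in IL-17A skin without it, 484 in GFP skin with IMQ and 1059 in GFP skin. That is the order seen for Tlr7, whose protein it transports. In GFP skin with IMQ against GFP skin, 14 of 14 were below 0, against 49.4% of all genes. Of the 14, 0 were 2-fold apart, where 0.283% of all genes were lower and 0.416% higher, and the median of the 14 was -0.39. Under IMQ the IL-17A median was -0.06, and Ly86 was 2.08-fold lower. Cd14, the lipopolysaccharide co-receptor of TLR4, chosen after its values were seen, went the other way there: it gave 534 in IL-17A skin with IMQ, 289 in IL-17A skin without it, 237 in GFP skin with IMQ and 456 in GFP skin, so the doubly treated array was highest.

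Adaptors and proximal kinases moved less. In IL-17A against GFP skin the median of the 13 above the limit was -0.06, and 1 was 2-fold lower, where 0.99% of all genes were. This was Pik3ap1, an adaptor between receptors and phosphoinositide kinase, at 2.10-fold lower. Btk, a kinase of B cells and myeloid cells, was 1.69-fold lower and Ticam2, the bridge from TLR4 to TRIF, 1.67-fold. Irak3, an inhibitory member of the kinase family that MyD88 recruits, was 1.34-fold lower. None (0) of 13 was 2-fold apart in the other comparisons. Of 16 kinases and transcription factors acting at the nuclear step, 0 were 2-fold apart in any comparison. Over the comparisons 0.0786% to 1.06% of all genes were 2-fold apart in a given direction, so counts of 0 are near that share. Irf5 was 1.58-fold lower in IL-17A than in GFP skin, and Irf7, an interferon-inducible factor, was 1.53-fold higher in IL-17A than in GFP skin under IMQ.

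Transcripts that these receptors can induce were the group with the widest differences, and most of them did not follow the receptors. At the log2 levels 10 of the 16 above the limit were highest in IL-17A skin with IMQ, while 3 were highest in GFP skin as the receptors were. Under IMQ the median of IL-17A minus GFP over the 16 above the limit was 0.89. It was 0.81 with genes below the limit on 1 array set at their bound. Of the 16, 7 passed 2-fold, all of them higher, where 1.06% of all genes were higher and 0.283% lower. Only 9 of the 16 were above the limit on all 4 arrays. The others were counted through the arrays on which they were above it, so the filter itself favours genes high on some arrays. Cxcl1, a neutrophil chemokine also induced by IL-17A, gave 1020 in IL-17A skin with IMQ, 648 in IL-17A skin without it, 66.8 in GFP skin with IMQ and 25.3 in GFP skin. Il1b gave 983 in IL-17A skin with IMQ, 474 in IL-17A skin without it, 72.8 in GFP skin with IMQ and 153 in GFP skin. These were high on both IL-17A arrays and highest with both treatments. Under IMQ, Ccl4, a chemokine for monocytes and lymphocytes, had a log2 difference of 2.45 between IL-17A and GFP skin on its brighter probe and 0.96 on its dimmer one. Cxcl2, which was below the limit in GFP skin with IMQ, was higher in IL-17A skin with IMQ by a factor of at least 3.32. Without IMQ, IL-17A against GFP skin gave 2 of 16 past 2-fold upward (Cxcl1 and Il1b), with a median of 0.28. It gave 1 downward, Rsad2, an interferon-induced antiviral gene named after its values were seen. Of all genes, 0.841% were higher and 0.99% lower there. In IL-17A skin, IMQ against no IMQ put 4 of 16 past 2-fold, all upward, against 0.165% of all genes, and the median of the 16 was 0.65. In GFP skin with IMQ against GFP skin, 0 of 16 were 2-fold apart and their median was -0.16. There 0.416% of all genes were higher and 0.283% lower. Many of these transcripts also answer to IL-17A, IL-1 and other cytokines, and what induced them was not tested.

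Of 16 negative regulators, 0 passed 2-fold between IL-17A and GFP skin. Of all genes, 1.06% were higher and 0.283% lower by that much under IMQ, and 0.841% and 0.99% without it. The medians of the 16 were 0.17 under IMQ and 0.02 without it (0.09 with genes below the limit on 1 array set at their bound). Dusp1, a phosphatase of MAP kinases, was 1.95-fold and Zfp36, which destabilises cytokine mRNAs, 1.86-fold higher in IL-17A skin under IMQ, and Nfkbiz, a nuclear cofactor of NF-kB, 1.63-fold. Atf3, a stress-induced repressor of cytokine genes, was 2.00-fold lower in GFP skin with IMQ than in GFP skin. IL-1 family receptors that share MyD88 had 0 of 5 at least 2-fold apart in any comparison. For so short a list 0 is near the share of all genes, 0.0786% to 1.06% in a given direction, as it is for the list that follows. Other sensors of nucleic acids and microbes had 0 of 10, and the largest differences were those of Dhx58, an RNA helicase, which against GFP skin was 1.87-fold lower with IL-17A DNA and 1.85-fold lower with IMQ.

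**Figure D3:**
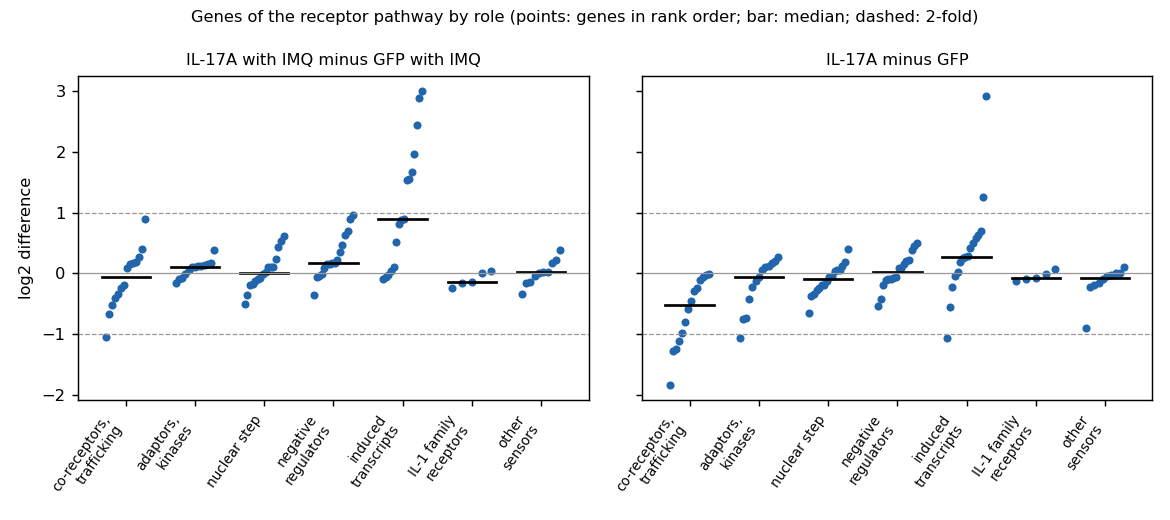
Log2 differences of pathway genes above the limit, grouped by role, in IL-17A minus GFP with IMQ (left) and without IMQ (right); points are genes in rank order, bars are medians and dashed lines are 2-fold. Induced transcripts reach 3.01 under IMQ, while co-receptors and trafficking factors lie below 0 without IMQ.

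Macrophage markers were highest on the GFP array too, in 11 of 11 genes, as were 8 of 8 fibroblast markers. The summed signal of the 11 macrophage genes was 11438 in IL-17A skin with IMQ, 13140 in IL-17A skin without it, 18729 in GFP skin with IMQ and 33652 in GFP skin. That is the order of Tlr7, which the keratinocyte and the dendritic and Langerhans cell sums below also had. The median log2 difference of the macrophage genes was -1.33 in IL-17A and -0.62 in GFP with IMQ, each against GFP skin. It was -0.59 between IL-17A and GFP skin when IMQ was given to both. Fibroblast genes had -0.67, -0.53 and -0.03 in these comparisons, and their summed signal was 23335, 22970, 22359 and 33260 over the arrays in the same order. In bulk skin, fewer cells of a type and less RNA per cell cannot be told apart, and the part of either cell type in the receptor values was not tested.

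Other cell types are given here as sums in the order IL-17A with IMQ, IL-17A, GFP with IMQ and GFP. The 8 keratinocyte genes summed to 126525, 138031, 142422 and 149668, the same array order as Tlr7. These are sums of deposited signals before normalization, in which the brightest genes weigh most. At the normalized log2 levels 7 of the 8 were highest in GFP skin with IMQ and only 1 in GFP skin. The medians of the 8 were 0.05 in IL-17A and 0.21 in GFP with IMQ, each against GFP skin. Of 7 neutrophil genes above the limit, 4 were above it on all arrays, and the 7 summed to 845 in IL-17A skin with IMQ, 554 in IL-17A skin without it, 134 in GFP skin with IMQ and 130 in GFP skin. Most of that sum on the IL-17A arrays was Retnlg (444, 250, 30.6 and 19.9) and Cxcr2 (189, 128, 34.5 and 28.7), while Elane was highest in GFP skin (27.3, 26.8, 29.6 and 37.0). The median of IL-17A minus GFP over the 7 was 0.76 under IMQ and 0.43 without it. Mast cell genes, 6 in number, were lowest in GFP skin with IMQ in 5 of 6, with sums of 3015, 2242, 1447 and 2845. Dendritic and Langerhans cell genes summed to 440, 697, 792 and 1262, again the array order of Tlr7, with 3 of 6 highest in GFP skin at the log2 levels. Most of each sum was Cd207 (232, 411, 433 and 522) and Cd86 (153, 247, 303 and 662). Only 3 of the 6 were above the limit on all 4 arrays. Of these 6, 1 (Cd86) was 2-fold lower in IL-17A than in GFP skin, where 0.99% of all genes were. Of the plasmacytoid dendritic cell list, which names cells rich in TLR7 and TLR9, 6 of 8 were above the limit and their median was -0.26 in IL-17A against GFP skin. Clec10a, a lectin also found on macrophages and other dendritic cells, was 2.48-fold lower there. Siglech, a defining marker chosen outside the rule for named genes, read 9.80, 12.0, 13.4 and 12.2, and Ccr9 was not above the limit. Bst2, on that list but also induced by interferon, gave 560, 262, 207 and 689. B cell genes were at the limit, with 2 of 6 above it on any array and sums between 12.4 and 32.9, and T cell genes, with 4 above it, summed to between 188 and 384.

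**Figure D4:**
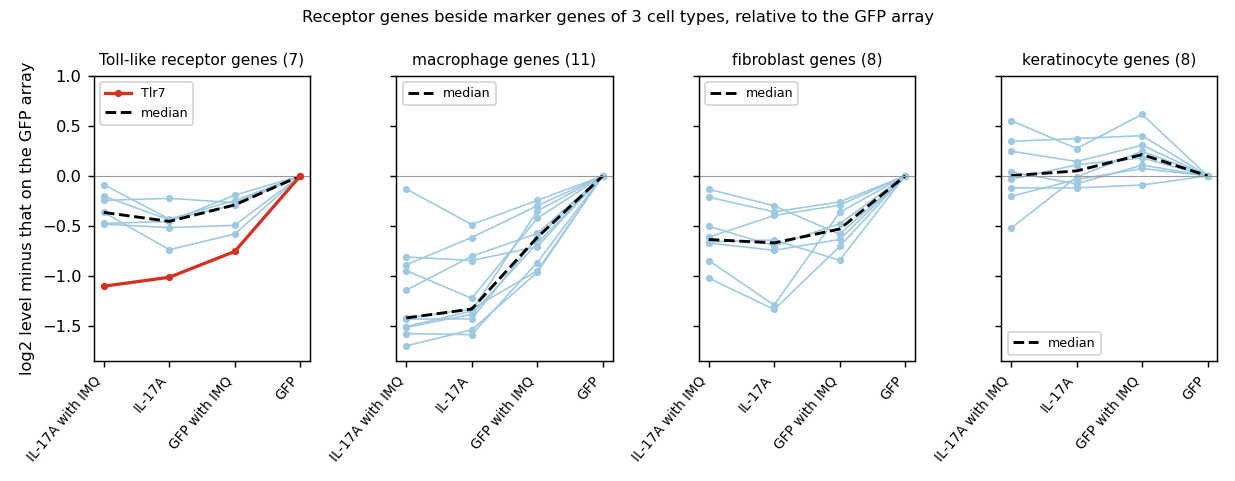
Log2 level minus that on the GFP array for the 7 receptor genes and for macrophage, fibroblast and keratinocyte markers, with 1 line per gene, Tlr7 in red and the median dashed. Receptor, macrophage and fibroblast lines all lie below 0 on the other 3 arrays, while keratinocyte lines lie on both sides of 0.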

How the data were processed

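Total RNA of mouse dorsal skin was labelled and hybridised to 4 Illumina bead arrays, 1 per group, each a pool of 6 mice. The labels give the arrays a shared chip number with different position letters, so position and group cannot be told apart. The deposited table of intensity values held 1 linear signal per probe and array for 45281 probes, and a background had been subtracted, since 32.3% to 33.7% of values were below 0. A second table held log2 values normalized by the authors, per the file headers with 1 column per sample, and its column medians were 4.82 to 4.83. The programs and the normalization method were not given in the sources used here.

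Intensities were corrected with limma 3.58.1 (R 4.3.3) by normexp with an offset of 50, quantile normalized and put on the log2 scale. Negative values mirrored at 0 described the noise, and the limit was the signal passed by a share of 0.01 of it. Between 20481 and 20719 probes per array were above it. Names came from the platform annotation (1 symbol for 34885 probes, several for 18, none for 10378). All 10 member identifiers were found in the RefSeq table. A gene was represented by its brightest probe above the limit on at least 1 array. A gene was called at 2-fold, or 1.5-fold, if the array with the higher level passed its own limit. Where 1 array was below its limit, "at least" gives a bound against the lowest level above that limit. No test was made, with 1 array per group. A fit without interaction would take the departure from additivity as noise and was not made. Tables were handled in Python 3.11.15 (pandas 2.3.3), and the steps were tested on simulated data.

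The members, lists, thresholds and alternatives were chosen with earlier results of these data known. Named genes were the members, up to 4 genes per list with the largest difference in any of the 4 comparisons, and the 3 genes most like Tlr7, which was also the member with the widest range. Cd14, Rsad2, Siglech, Ccr9, Elane, Tlr11 and Tlr12 are named outside this rule, after their values were seen. Not every gene the rule gives is described.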

Additional observations from a re-analysis of the deposited data

Results flagged for a closer look

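The brighter Tlr13 probe went opposite ways with IMQ according to the DNA the mice were given. It was higher by 0.37 on the log2 scale in IL-17A skin and lower by a difference of -0.58 in GFP skin, each with IMQ against without. The gap between these differences was 0.95. With 1 array per group the gap was not tested, and the dimmer Tlr13 probe gave a gap of 0.18, with -0.08 in IL-17A skin and -0.26 in GFP skin.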

How the results depend on the processing

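No paired analysis was possible because each group had 1 array, and for the same reason no array could be left out. The median of the 8 genes kept its sign under the settings tried, except for IMQ against no IMQ in IL-17A skin, where it was -0.01 with median scaling in place of 0.03. Counts are given as higher and lower by 2-fold over all genes. With an offset of 16, GFP with IMQ against GFP gave 82 and 81, IL-17A against GFP under IMQ gave 65 lower, and IMQ against no IMQ in IL-17A skin gave 33 higher. Without the background model and floored at 16, IL-17A against GFP gave 300 and 367 with 5 of the 8 genes lower and their median at -1.14. GFP with IMQ against GFP gave 205 and 231 with 1 of the 8 lower, IL-17A against GFP under IMQ 330 and 208 with 1 lower (Tlr1, -1.01), and IMQ against no IMQ in IL-17A skin 115 and 82. Median scaling gave 72 lower for GFP with IMQ against GFP. The authors' values gave 237 and 256 for IL-17A against GFP, with 2 of the 8 lower (Tlr7 and Tlr13), 140 and 137 for GFP with IMQ against GFP, 252 and 109 for IL-17A against GFP under IMQ, and 69 and 42 for IMQ against no IMQ in IL-17A skin. Averaging a gene's probes left 5 lower for IMQ against no IMQ in IL-17A skin. Keeping genes above the limit on all 4 arrays left 54 higher for IL-17A against GFP, 14 for GFP with IMQ against GFP and 75 for IL-17A against GFP under IMQ, since fewer genes were counted. At 1.5-fold, the counts over these comparisons in the same order were 271 and 406 (2 of the 8 lower), 197 and 262 (1 lower) and 321 and 238, with 123 and 27 for IMQ against no IMQ in IL-17A skin. Tlr7 in IL-17A against GFP skin lay between -1.48 and -1.01 under all settings. Other causes of these shifts were not tested.

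Dim probes limit the folds: without the background model, IL-17A minus GFP was -1.51 for Tlr1 and -1.25 for Tlr6, against -0.45 and -0.44 with it.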
